A study of Mus musculus with 39 samples.

Results

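Proteins that enter the endoplasmic reticulum (ER) of a β cell are decorated with N-glycans, and 37 genes for the supply, assembly and trimming of that sugar tree were followed in MIN6 cells treated with SW016789 or thapsigargin. The genes were chosen by symbol from what they encode, with earlier results of these data known, and all 37 were found among the 24421 gene symbols of the count table. All 37 passed the filter on low counts, which kept 21752 genes. MIN6 is a β cell line derived from a mouse insulinoma. Cells received SW016789 (5 µM), which amplifies insulin secretion, thapsigargin (Tg, 100 nM), which blocks the SERCA pump and so empties the ER of Ca2+, or DMSO vehicle (0.1%), each for 1, 2, 6 or 24 h, and untreated cells were taken at 0 h as the baseline. The 13 groups hold 3 libraries each, 1 from each of 3 independent experiments, and within an experiment the additions were staggered so that collection was simultaneous. Only MIN6 cells were used, and the spread behind each p-value is that between experiments with them.

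The N-glycan is built on dolichol, a lipid of the ER membrane. Enzymes on the cytosolic face add N-acetylglucosamine and mannose, the intermediate is flipped, and luminal enzymes add more mannose and a glucose cap before the whole tree is transferred to a nascent protein. Glucosidases then trim the cap, and a glucosyltransferase restores a glucose on proteins that have not folded, which sends them back to the lectin chaperones calnexin and calreticulin. The hexosamine pathway makes the UDP-N-acetylglucosamine that starts the tree, and GDP-mannose supplies its mannose. These steps are known for their part in protein quality control in secretory cells.

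The libraries held 9150443 to 47616080 counts (median 32153770). Intergenic reads were 6.17% to 36.6% of high-quality reads. The 6 libraries above 25% were all from treated cells at 1, 2 or 6 h, and the library with the lowest total, SW016789 at 1 h in experiment 1, had the highest share. At 24 h the share was 6.23% to 9.09% in all 9 libraries. All 12 β cell markers were at or above 1 CPM (the usual depth-normalised count) at baseline and summed to 30933 to 35423 CPM there. Marker CPM, here and below, were scaled to library totals, whereas CPM of the 37 genes are on TMM-scaled libraries. Of 17 acinar and ductal markers, 3 reached 1 CPM at baseline and 5 had no count, and of 18 stromal, endothelial and immune markers 7 reached 1 CPM and 2 had no count. Between DMSO cells and the 0 h baseline, none of the 37 passed edgeR's quasi-likelihood test at 1, 2, 6 or 24 h, where 0.0%, 0.00919%, 0.0% and 0.0% of all genes tested did. The unadjusted p was below 0.05 for 7 of the 37 at 2 h and for 0 at the other times. Over all 21752 genes tested it was below 0.05 for 472, 1881, 427 and 413 at 1, 2, 6 and 24 h. DESeq2 called 0 of the 37 at each time, beside 5, 89, 11 and 12 of all genes. Without DMSO of experiment 1 the 2 h comparison called 1 of the 37.

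The genes differ widely in level. Per kilobase of exon, baseline cells held most of Ganab, the catalytic subunit of glucosidase II, at 114.5 ± 2.89 CPM per kb (SD, n = 3), which was above 98.2% of the genes tested. Prkcsh, its other subunit, followed at 76.7 ± 3.25 CPM per kb. Gfpt1, the rate-limiting enzyme of the hexosamine pathway, had 70.9 ± 2.91 CPM per kb, and Alg2, a mannosyltransferase, 69.8 ± 4.14 CPM per kb, and the libraries of these neighbours overlapped. The pathway's later enzymes were lower, with Uap1 at 17.9 ± 0.63, Gnpnat1 at 10.1 ± 0.45 and Pgm3 at 6.81 ± 0.34 CPM per kb. Uggt1, the sensor that puts glucose back on unfolded glycoproteins, had 45.8 ± 1.76 CPM per kb, and its paralog Uggt2 6.43 ± 1.13 CPM per kb. From Man1b1, the 10th in this order, to Alg8, the 23rd, no gene had its lowest baseline library above the highest of the next gene. The lowest was Dpm1 at 1.92 ± 0.12 CPM per kb, and its count is uncertain because a readthrough gene, Dpm1-adnp, covers it on the same strand.

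Both compounds raised many of these genes, mainly at 6 and 24 h. Unless another setting is named, called refers to an adjusted p below 0.05 at a single time in the main model, without the replicate block. SW016789 called 0 of 37 at 1 h, where 0.372% of all genes tested were called. The unadjusted p was below 0.05 there for 2 of the 37 and for 3323 of the 21752 genes tested. DESeq2 called 0 of the 37 and 397 of all genes. At 2 h SW016789 raised 1, Gmppb, against 2.58% of all genes. At 6 h it raised 16 of 37 (43.2%), where 4.19% of all genes tested rose, and lowered 0, where 2.85% fell. At 24 h it raised 11 (29.7%), where 1.95% of all genes rose, and lowered 0, where 1.06% fell. The median log2 fold change of the 37 was 0.35 at 6 h and 0.24 at 24 h, beside 0.12 and 0.06 over all genes tested. Alg11, Alg12, Dpagt1, Gfpt1, Gmppb, Mogs, Prkcsh and Uggt1 were raised at both times.

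Thapsigargin called 0 of 37 at 1 h (0.046% of all genes) and 0 at 2 h (1.38%). The unadjusted p was below 0.05 for 1 of the 37 at 1 h and for 13 at 2 h, beside 2613 and 3908 of the 21752 genes tested. DESeq2 called 0 and 1 of the 37, beside 40 and 1072 of all genes. With the replicate block Alg10b was called at 2 h at -0.25 ± 0.07 (adjusted p = 0.046). At 6 h 7 genes rose (8.06% of all genes rose) and 1 fell (8.73% fell), and at 24 h 20 rose (10.1%) and 0 fell (10.7%). The median of the 37 was 0.05 at 6 h, below the 0.30 of all genes tested, and 0.38 at 24 h, above their 0.07. The order at 6 h depended on the model. With the replicate block and the intergenic percent as a term, the 6 h median was 0.12 for the 37 and 0.04 for all genes. The 7 genes raised at 6 h were also raised at 24 h. Over the 4 times tested together, 20 of 37 were called under SW016789 (9.04% of all genes) and 22 under thapsigargin (29.8%). The change farthest from 0 was upward in all 20 and in 19 of the 22, and downward in Alg9, Alg10b and Alg1 under thapsigargin. The 2 treatments were set against the same DMSO libraries, so their counts are not independent. In bulk RNA, fewer cells of a type and less RNA per cell cannot be told apart.

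Single libraries moved these counts. At 6 h of SW016789 the count of 16 was 8 without DMSO of experiment 1, 7 without SW016789 of experiment 2 and 8 without SW016789 of experiment 3. At 24 h the count of 11 was 5 without DMSO of experiment 2 or of experiment 3, 6 without SW016789 of experiment 1 or of experiment 2, and 7 without DMSO of experiment 1. The 2 h count of 1 was 5, 0 and 2 without DMSO of experiments 1, 2 and 3. For thapsigargin, the 6 h count of 8 was 5 without the DMSO library of any 1 experiment, the 2 h count of 0 was 8 without DMSO of experiment 1, and the 24 h count of 20 was 15 or 16 without any 1 library. For the 4 times together, the 20 of SW016789 were 11 without DMSO at 1 h of experiment 1, 9 without DMSO at 6 h of experiment 1, 8 without SW016789 at 6 h of experiment 2 or 3 and 11 without SW016789 at 2 h of experiment 3, and the 22 of thapsigargin were 14 without thapsigargin at 24 h of experiment 3. Without any 1 library, 7 of the 16, 4 of the 11, 4 of the 8 and 14 of the 20 calls held throughout. Without the 6 libraries above 25% intergenic reads, SW016789 called 17 at 6 h and 12 at 24 h and lost no gene, and thapsigargin called 8 at 6 h, with Uap1 lost and Dolpp1 gained, and 23 at 24 h. The summed stromal, endothelial and immune markers were 13.6 to 53.9 CPM in SW016789, 20.2 to 81.6 CPM in thapsigargin and 16.98 to 20.1 CPM in DMSO at 6 h. Of these 18 markers 0 were called at 6 h in edgeR's test, with median log2 fold changes of 1.66 for SW016789 and 2.30 for thapsigargin. At 2 h the sums were 13.7 to 27.7 CPM in SW016789, 29.8 to 86.6 CPM in thapsigargin and 10.6 to 30.4 CPM in DMSO, and at 24 h they were 15.5 to 28.4 CPM in SW016789, 15.8 to 21.4 CPM in thapsigargin and 13.7 to 16.4 CPM in DMSO. Their part in the results was not tested.

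**Figure D1:**
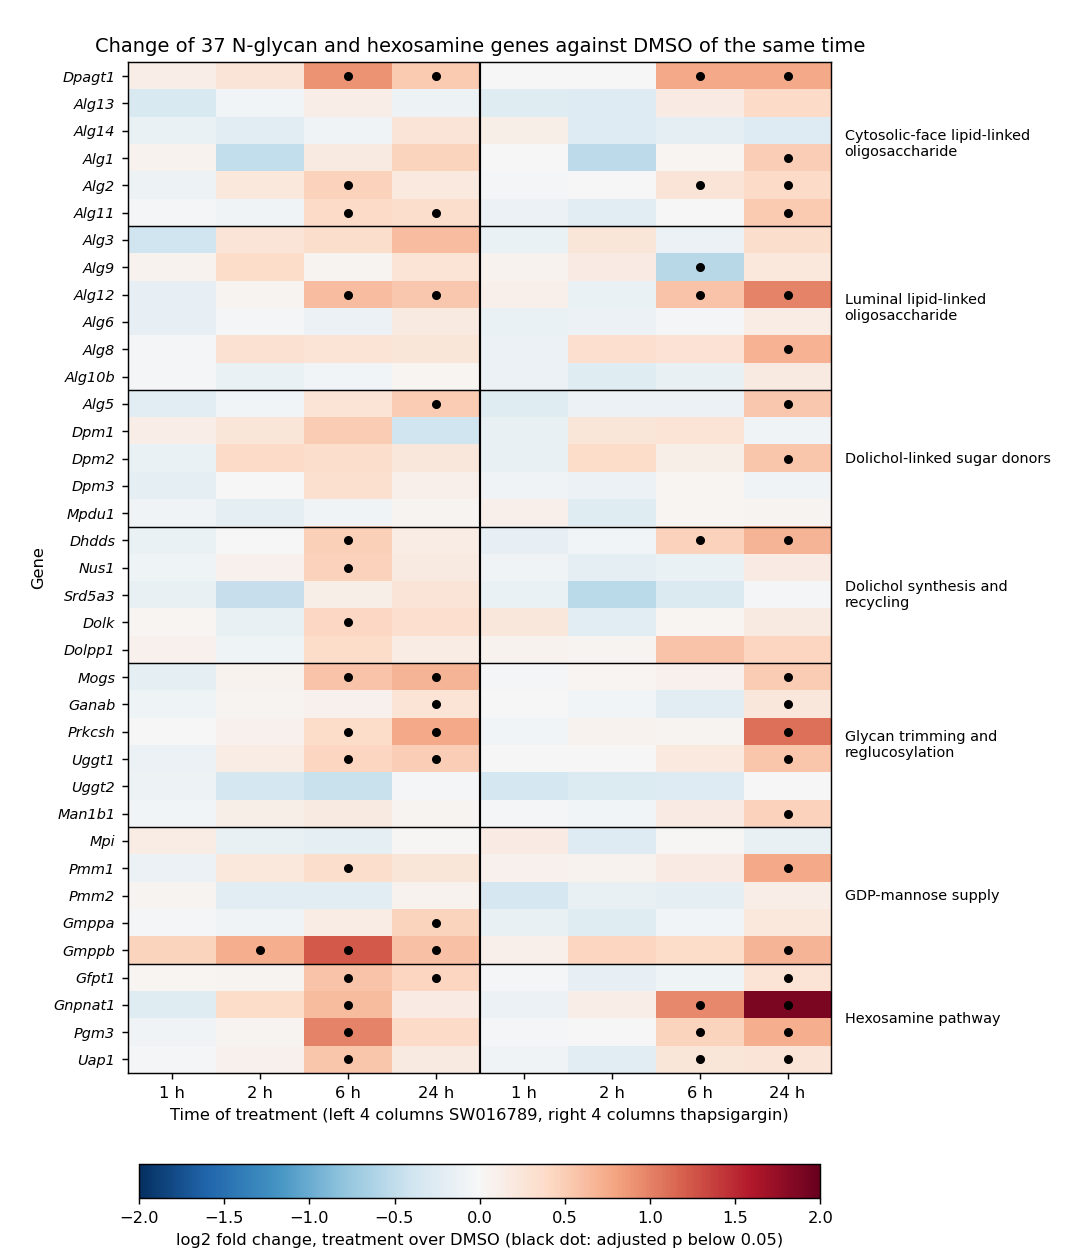
Log2 fold change of each of the 37 genes (rows, grouped by role) against DMSO of the same time, with SW016789 in the left 4 columns and thapsigargin in the right 4, n = 3 libraries per group. Black dots mark an adjusted p below 0.05 and stand almost only in the 6 h and 24 h columns, on 16 and 11 genes for SW016789 and on 8 and 20 for thapsigargin.

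The hexosamine pathway was the role in which every member rose with SW016789 at 6 h (4 of 4, median log2 fold change 0.61) and with thapsigargin at 24 h (4 of 4, median 0.50). Thapsigargin raised 3 of 4 at 6 h, and SW016789 raised 1 of 4 at 24 h. Gfpt1 (chr6:87042846-87092207, mm10), which makes glucosamine phosphate from fructose phosphate and glutamine, had 626, 703 and 612 CPM in SW016789 at 6 h, in experiments 1 to 3, against 436, 423 and 442 CPM in DMSO. The 3 treated libraries stood above all DMSO libraries, with a log2 fold change of 0.58 ± 0.07 (SE, adjusted p = 2.7e-07, edgeR's quasi-likelihood test with Benjamini-Hochberg adjustment, as for every adjusted p below). Thapsigargin at 6 h held it at 439, 384 and 397 CPM, within and below the DMSO range, at -0.09 ± 0.07 (adjusted p = 0.34). At 24 h Gfpt1 had 634, 611 and 628 CPM in SW016789, 580, 570 and 529 CPM in thapsigargin, and 469, 466 and 456 CPM in DMSO. Both treatments lay wholly above DMSO, by 0.43 ± 0.07 (adjusted p = 0.00014) and 0.27 ± 0.07 (adjusted p = 0.0041), and the second call ended without any 1 of the 6 libraries compared, at 0.22 to 0.36.

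Gnpnat1 (chr14:45376421-45388796), the acetyltransferase of the pathway, showed the widest change of the 37. At 24 h it had 95.6, 105.8 and 104.4 CPM in thapsigargin, against 28.2, 27.4 and 27.4 CPM in DMSO, a log2 fold change of 1.88 ± 0.17 (adjusted p = 3.3e-11). At 6 h thapsigargin held 57.0, 46.9 and 45.9 CPM, against 27, 25.0 and 25.1 CPM in DMSO, at 0.96 ± 0.17 (adjusted p = 5.7e-05). Every thapsigargin library was above every DMSO library at both times. SW016789 at 6 h held 39.4, 41.5 and 39.2 CPM, again above every DMSO library, at 0.64 ± 0.17 (adjusted p = 0.012). That call ended without the DMSO library of any 1 experiment and without SW016789 of experiment 2 or 3, at 0.56 to 0.68. At 24 h SW016789 had 34.3, 28.9 and 29.8 CPM, close to the 27.4 to 28.2 CPM of DMSO, at 0.16 ± 0.17 (adjusted p = 0.89). Gnpnat1 overlaps Styx on the opposite strand, and counting used strand.

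Pgm3 (chr9:86552476-86571842), the mutase that moves the phosphate of N-acetylglucosamine, had 75.4, 65.4 and 57.2 CPM in SW016789 at 6 h, 48.9, 42.6 and 43.3 CPM in thapsigargin, and 33.8, 31.8 and 33.2 CPM in DMSO. The 3 groups did not overlap, and the log2 fold changes over DMSO were 1.00 ± 0.13 (adjusted p = 4.1e-07) and 0.45 ± 0.13 (adjusted p = 0.013). The thapsigargin call ended without thapsigargin of experiment 1 or without any 1 DMSO library, at 0.26 to 0.42. By 24 h the order of the compounds was the other way, with 44.8, 42.6 and 36 CPM in SW016789, 54.0, 51.1 and 51.1 CPM in thapsigargin and 33.7, 29.3 and 31.3 CPM in DMSO. Thapsigargin was above DMSO by 0.73 ± 0.13 (adjusted p = 2.6e-05), and SW016789, whose libraries also lay above those of DMSO, by 0.39 ± 0.13, which missed the threshold (adjusted p = 0.11) but was called by DESeq2 and by the replicate block with the intergenic percent as a term. Pgm3 overlaps Dopey1 on the opposite strand.

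Uap1 (chr1:170141223-170174964) completes UDP-N-acetylglucosamine. It had 77.7, 90.6 and 91.2 CPM in SW016789 at 6 h, 74.2, 67.8 and 66.2 CPM in thapsigargin and 59.3, 57.6 and 59.8 CPM in DMSO. Both treatments were above every DMSO library, by 0.56 ± 0.08 (adjusted p = 5.9e-06) and 0.24 ± 0.08 (adjusted p = 0.043). At 24 h the values were 72.3, 65.9 and 67.5 CPM in SW016789, 70.3, 71.4 and 75.5 CPM in thapsigargin and 61.6, 63.8 and 56.7 CPM in DMSO, which gave 0.18 ± 0.08 (adjusted p = 0.42) and 0.26 ± 0.08 (adjusted p = 0.020). Both thapsigargin calls ended without any 1 library, at 0.06 to 0.25 at 6 h and 0.18 to 0.27 at 24 h. At 1 and 2 h the 4 genes had adjusted p of at least 0.19 in both treatments, and the lowest early value was Gnpnat1 at 11.8 CPM in SW016789 at 1 h of experiment 1, the library with the highest intergenic share.

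**Figure D2:**
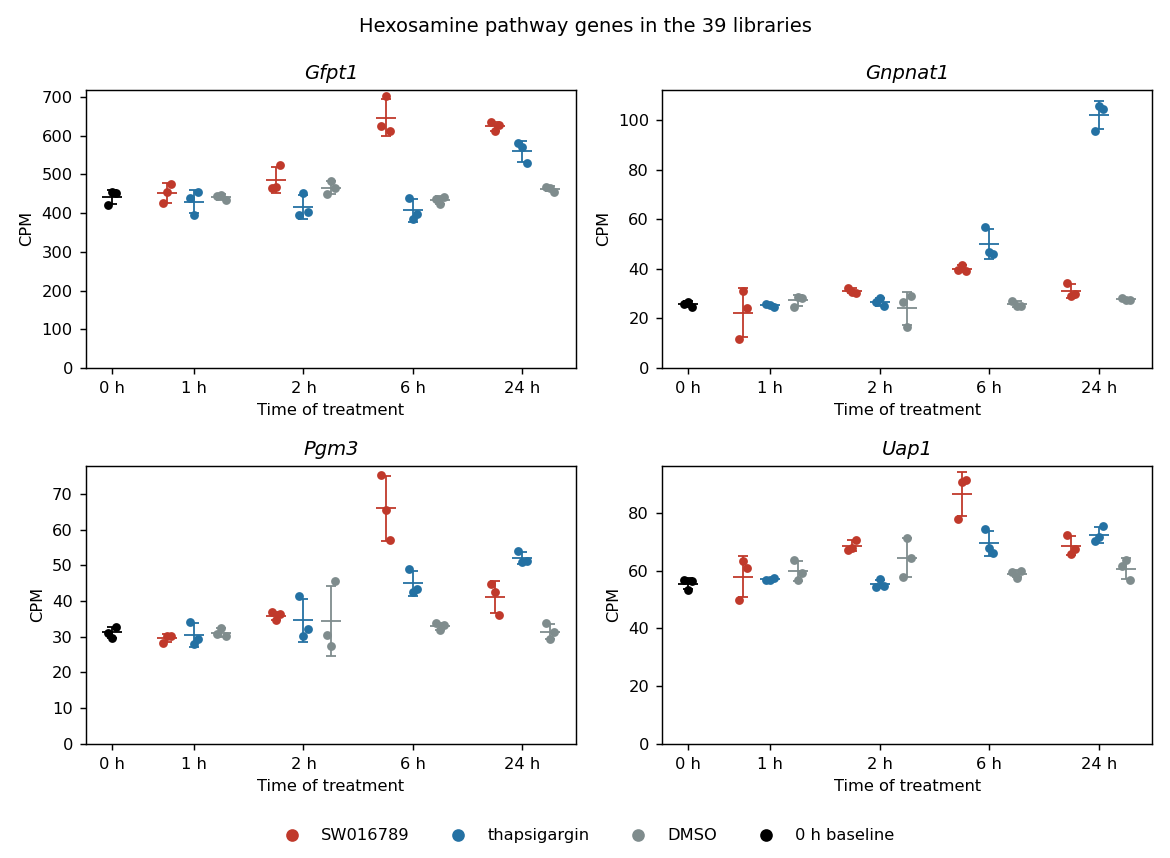
CPM of the 4 hexosamine pathway genes (y axes, from 0) in each of the 39 libraries by time of treatment, with SW016789, thapsigargin and DMSO side by side and the 0 h baseline at the left. Points are libraries and bars are the mean ± SD of 3; Gnpnat1 reached 95.6 to 105.8 CPM in thapsigargin at 24 h, against 27.4 to 28.2 CPM in DMSO, while Pgm3 was highest in SW016789 at 6 h.

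Of the 6 cytosolic-face enzymes, SW016789 raised 3 at 6 h and 2 at 24 h, and thapsigargin raised 2 at 6 h and 4 at 24 h. Dpagt1 (chr9:44326845-44333600) commits dolichol to the pathway by adding the first sugar phosphate and is the target of tunicamycin. It was raised in all 4 of these comparisons. At 6 h it had 67.1, 79.9 and 71.1 CPM in SW016789, 72.0, 57.3 and 66.5 CPM in thapsigargin and 41.0, 36.4 and 39.3 CPM in DMSO. Each treated library was above each DMSO library, at 0.91 ± 0.14 (adjusted p = 8.7e-06) and 0.75 ± 0.14 (adjusted p = 9.9e-05). At 24 h the values were 66.3, 67.7 and 53.1 CPM in SW016789, 83.7, 65.7 and 70.9 CPM in thapsigargin and 48.2, 42.5 and 39.2 CPM in DMSO, again without overlap with DMSO. The log2 fold changes were 0.53 ± 0.14 (adjusted p = 0.020) and 0.76 ± 0.14 (adjusted p = 3.1e-05), and the SW016789 call ended without SW016789 of experiment 1 or 2 or DMSO of experiment 2 or 3, at 0.44 to 0.49. At 1 and 2 h it was 38.8 to 52.5 CPM in SW016789, 33.4 to 43.0 CPM in thapsigargin and 33.3 to 48.1 CPM in DMSO, and these ranges overlapped.

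Alg2 and Alg11, which add the mannoses of the cytosolic stage, rose more modestly. Alg2 was raised at 6 h by SW016789 (0.46 ± 0.09) and thapsigargin (0.26 ± 0.09) and at 24 h by thapsigargin (0.38 ± 0.09), and Alg11 at 6 and 24 h by SW016789 (0.38 ± 0.10 and 0.35 ± 0.10) and at 24 h by thapsigargin (0.52 ± 0.10). The Alg11 call at 24 h of thapsigargin held without any 1 library. The Alg2 calls ended without DMSO of experiment 1 or SW016789 of experiment 2 or 3 at 6 h (0.34 to 0.48), without any 1 library at 6 h of thapsigargin (0.14 to 0.26), and without DMSO or thapsigargin of experiment 3 at 24 h (0.31 to 0.40). The Alg11 calls under SW016789 ended without DMSO of experiment 1 or 3 or SW016789 of experiment 2 or 3 at 6 h (0.29 to 0.37) and without any 1 library at 24 h (0.28 to 0.37). Alg1, which adds the first mannose, rose with thapsigargin at 24 h (0.49 ± 0.16, ended without any 1 of 5 libraries, all but thapsigargin of experiment 3, at 0.39 to 0.51). Alg13 and Alg14, the partners that add the second N-acetylglucosamine, were called against DMSO at no single time.

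Of the 6 luminal enzymes, Alg12 was raised at 6 and 24 h by both compounds, Alg8 by thapsigargin at 24 h, and Alg9 fell with thapsigargin at 6 h. Alg12 (chr15:88805243-88819318) adds a mannose of the branch that glycan-directed degradation reads. It had 31.9, 31.3 and 29.6 CPM in SW016789 at 6 h, 29.4, 29 and 31.2 CPM in thapsigargin and 21.5, 19.8 and 19.3 CPM in DMSO. At 24 h it had 29.5, 27.1 and 26.8 CPM in SW016789, 36.6, 36.6 and 40.5 CPM in thapsigargin and 20.4, 17.1 and 19.8 CPM in DMSO. The treated and DMSO libraries never overlapped at these times. The log2 fold changes were 0.61 ± 0.11 (adjusted p = 0.00021) and 0.56 ± 0.11 (adjusted p = 0.00038) at 6 h, and 0.54 ± 0.11 (adjusted p = 0.0026) and 0.99 ± 0.11 (adjusted p = 8.3e-09) at 24 h, for SW016789 and thapsigargin in that order. The SW016789 call at 24 h ended without DMSO of experiment 2, at 0.45.

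The promoter of Alg12 is shown because it was the only one of the members' promoters to hold the ER stress response element (ERSE: CCAAT, any 9 bases, CCACG), the element read by ATF6 together with NF-Y. The 300 bases run from 250 before to 50 after the start on the minus strand (chr15:88819269-88819568, GRCm38.p6, sequence from RefSeq), and capitals mark the element, which begins 220 bases before the start.
Alg12: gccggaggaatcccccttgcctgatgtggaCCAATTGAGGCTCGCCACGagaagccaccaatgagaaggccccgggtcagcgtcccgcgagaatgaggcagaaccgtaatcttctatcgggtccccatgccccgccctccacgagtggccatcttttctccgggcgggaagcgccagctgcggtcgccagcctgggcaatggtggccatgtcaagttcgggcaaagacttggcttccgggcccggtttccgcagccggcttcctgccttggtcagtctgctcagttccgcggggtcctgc

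Promoters of this length were matched for 32 of the 37 members, and ERSE, searched on both strands, was in 37 of 27025 promoters of the genome's genes (0.137%). Creld2, an ER stress gene named here after its values were seen, begins 328 bases from Alg12 and runs the other way, so both genes share this stretch. It rose by 1.04 ± 0.10 with SW016789 at 2 h, by 2.08 ± 0.10 at 6 h, by 0.98 ± 0.10 at 24 h and by 0.67 ± 0.10 with thapsigargin at 24 h. At 6 h of thapsigargin, where Alg12 rose, Creld2 was at 0.11 ± 0.10 (adjusted p = 0.41). A match of letters is a description of the sequence.

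Alg9 (chr9:50775225-50843639) adds luminal mannoses. At 6 h it had 33.7, 29.1 and 32.2 CPM in SW016789, 21.2, 22.1 and 18.6 CPM in thapsigargin and 31.4, 31.9 and 27.6 CPM in DMSO. The thapsigargin libraries lay below all others, at -0.56 ± 0.11 (adjusted p = 0.00029), a call that held without any 1 library, whereas SW016789 overlapped DMSO at 0.06 ± 0.11. At 24 h thapsigargin had 32.3, 31.1 and 36.2 CPM and overlapped the 26.2, 31.2 and 28.1 CPM of DMSO, at 0.22 ± 0.11 (adjusted p = 0.17). Alg8, which adds the second glucose of the cap, rose by 0.70 ± 0.15 with thapsigargin at 24 h (adjusted p = 0.00049). Alg3, Alg6 and Alg10b were called against DMSO at no single time in the main model. Over the 4 times together Alg3 was called under SW016789, Alg10b under thapsigargin and Alg9 under both. The SW016789 call of Alg9 ended without the libraries above 25% intergenic reads and with scaling to library totals. The thapsigargin call of Alg10b also ended without those libraries. At 24 h of thapsigargin, Alg10b was called as higher by DESeq2, with library totals and by the replicate block with the intergenic percent. At 24 h Alg3 had 35.1, 38.2 and 26.8 CPM in SW016789 at 24 h, against 24.8, 21.7 and 18.95 CPM in DMSO (0.61 ± 0.19, adjusted p = 0.072), and it was called there by DESeq2 and without the libraries above 25% intergenic reads.

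Genes for the dolichol carrier and its sugar donors moved in part. Dhdds (chr4:133969057-134000864) and Nus1 encode the subunits of the prenyltransferase that makes the dolichol chain. Dhdds had 138.9, 136.7 and 134.1 CPM in SW016789 at 6 h, 146.8, 121.8 and 136.5 CPM in thapsigargin and 101.8, 97.02 and 94.3 CPM in DMSO. Both treatments stood above DMSO, at 0.48 ± 0.09 (adjusted p = 0.00033) and 0.47 ± 0.09 (adjusted p = 0.00027), and the calls ended without SW016789 of experiment 2 (0.43) and without thapsigargin of experiment 1 (0.28). At 24 h SW016789 had 109.3, 113.4 and 96.6 CPM, partly within the 93.9 to 99.2 CPM of DMSO (0.15 ± 0.09, adjusted p = 0.69), and thapsigargin 153.8, 161.4 and 148.2 CPM, above every DMSO library (0.68 ± 0.09, adjusted p = 2.4e-07).

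Nus1 rose with SW016789 at 6 h, with 152.7, 169.9 and 172.7 CPM, against 114.9, 124.4 and 121.8 CPM in DMSO (0.46 ± 0.08, adjusted p = 0.00021). That call ended without DMSO of experiment 1 or SW016789 of experiment 2 or 3, at 0.38 to 0.43. Thapsigargin at 6 h held Nus1 at 114.4, 104.1 and 111.9 CPM, below all DMSO libraries, at -0.13 ± 0.08 (adjusted p = 0.25). Between the compounds at 6 h, Nus1 was higher in SW016789 by 0.58 ± 0.08 (adjusted p = 4.9e-06), and Dhdds differed by 0.01 ± 0.09 (adjusted p = 0.95). Dolk, the dolichol kinase, rose with SW016789 at 6 h (0.42 ± 0.13, adjusted p = 0.040), a call that ended without any 1 library (0.35 to 0.45) and with scaling to library totals. Srd5a3, the polyprenol reductase, and Dolpp1, which recycles dolichol, were called against DMSO at no single time, although DESeq2 called Dolpp1 at 6 h of thapsigargin. Among the donors, Alg5, which makes dolichol-phosphate-glucose, rose at 24 h with SW016789 (0.50 ± 0.14, ended without any 1 library, at 0.41 to 0.56) and thapsigargin (0.54 ± 0.14, ended without DMSO of experiment 1, at 0.43). Dpm2, a subunit of dolichol-phosphate-mannose synthase, rose with thapsigargin at 24 h (0.55 ± 0.15), and its other subunits Dpm1 and Dpm3 and the donor-use factor Mpdu1 were called at no single time.

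Of the 6 trimming and reglucosylation genes, SW016789 raised 3 at 6 h and 4 at 24 h, and thapsigargin raised 0 at 6 h and 5 at 24 h. Mogs (chr6:83115506-83118898) encodes glucosidase I, which removes the outermost glucose. It had 67.3, 69.1 and 72.5 CPM in SW016789 at 6 h, 50.6, 51.9 and 47.2 CPM in thapsigargin and 44.9, 46.8 and 48.5 CPM in DMSO. SW016789 stood above the other groups (0.58 ± 0.10, adjusted p = 5.8e-05), and thapsigargin overlapped DMSO (0.09 ± 0.10, adjusted p = 0.49). At 24 h Mogs had 76.6, 78.9 and 63.9 CPM in SW016789, 63.9, 64.3 and 66.1 CPM in thapsigargin and 45.6, 44.7 and 46.7 CPM in DMSO. Both treatments lay above DMSO, by 0.68 ± 0.10 (adjusted p = 1.0e-05) and 0.50 ± 0.10 (adjusted p = 0.00010), and all 3 calls of Mogs held without any 1 library.

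The Mogs promoter is shown because it alone among the 32 held a match to the unfolded protein response element read by XBP1 and ATF6 (searched as TGACGTGG and TGACGTGA, both strands). The stretch is chr6:83115256-83115555 on the plus strand (GRCm38.p6, RefSeq), and capitals mark the match, 34 bases before the start.
Mogs: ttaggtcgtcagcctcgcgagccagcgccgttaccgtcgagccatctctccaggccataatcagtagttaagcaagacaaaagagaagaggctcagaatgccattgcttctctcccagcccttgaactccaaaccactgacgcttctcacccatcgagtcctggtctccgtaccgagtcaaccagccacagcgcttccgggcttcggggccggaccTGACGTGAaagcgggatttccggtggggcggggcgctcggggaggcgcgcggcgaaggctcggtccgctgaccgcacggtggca

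TGACGTGA was in 0.507% and TGACGTGG in 0.714% of all promoters, and no member of the 32 held the second. The element ERSE-II (ATTGG, any 1 base, CCACG; 0.0444% of all promoters) and TGATGNAA, the core of elements bound by ATF4 and C/EBP factors (4.51%), were also in none of the 32 members' windows. Gnpnat1, Dpagt1, Gmppb, Alg2 and Alg11 were not among the 32.

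Prkcsh (chr9:22002988-22014245) encodes the subunit that holds glucosidase II in the ER. At 24 h it had 271.2, 261.9 and 270.2 CPM in SW016789, 356.1, 321.4 and 344.9 CPM in thapsigargin and 158.2, 159.0 and 158.9 CPM in DMSO. The 3 groups did not overlap, with log2 fold changes over DMSO of 0.75 ± 0.08 (adjusted p = 1.4e-08) and 1.10 ± 0.08 (adjusted p = 6.0e-14). At 6 h it had 191.0, 218.5 and 218.2 CPM in SW016789, 176.2, 158.5 and 165.7 CPM in thapsigargin and 159.5, 159.8 and 165.2 CPM in DMSO. SW016789 rose by 0.37 ± 0.08 (adjusted p = 0.00093, ended without DMSO of experiment 1 or SW016789 of experiment 2 or 3, at 0.29 to 0.37), and thapsigargin overlapped DMSO (0.05 ± 0.08). Ganab, its catalytic partner, rose less, by 0.27 ± 0.08 with SW016789 (adjusted p = 0.047) and 0.22 ± 0.08 with thapsigargin (adjusted p = 0.036) at 24 h, and both calls ended without any 1 library, at 0.22 to 0.29 and 0.16 to 0.26. At 6 h of thapsigargin Ganab was at -0.20 ± 0.08 (adjusted p = 0.061), and with the replicate block it was at -0.20 ± 0.07 (adjusted p = 0.036).

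Uggt1 (chr1:36140028-36244302) had 571.1, 573.1 and 543.3 CPM in SW016789 at 6 h, 511.4, 447.8 and 475.7 CPM in thapsigargin and 435.3, 389.9 and 423.6 CPM in DMSO. SW016789 rose by 0.43 ± 0.09 (adjusted p = 0.00059, ended without DMSO of experiment 1 or SW016789 of experiment 2 or 3, at 0.37 to 0.47). Thapsigargin, though above every DMSO library, was at 0.20 ± 0.09 (adjusted p = 0.091). This change was called by DESeq2, with its size factors in edgeR, with library totals and by the replicate block with the intergenic percent. At 24 h Uggt1 had 630.2, 617.8 and 585.8 CPM in SW016789, 659.8, 638.6 and 626.4 CPM in thapsigargin and 439.9, 442.9 and 427.5 CPM in DMSO. Both treatments were above every DMSO library, at 0.48 ± 0.09 (adjusted p = 0.00035) and 0.55 ± 0.09 (adjusted p = 3.7e-06), and held without any 1 library.

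Uggt2 (chr14:118984985-119099434), the paralog, passed the test at no single time in the main model. It had 32.9, 36.1 and 26.8 CPM in SW016789 at 6 h, 45.9, 33.6 and 29.2 CPM in thapsigargin and 46.9, 38.3 and 45.4 CPM in DMSO. SW016789 lay below all DMSO libraries, at -0.45 ± 0.19 (adjusted p = 0.16), and with the replicate block it passed the test at -0.44 ± 0.14 (adjusted p = 0.035). At 24 h the values were 42.2, 40.4 and 31.8 CPM in SW016789, 49.7, 34.4 and 31.4 CPM in thapsigargin and 44.9, 31.2 and 40.1 CPM in DMSO, which overlapped throughout (-0.02 ± 0.18 and -0.01 ± 0.18). Man1b1, an α-mannosidase that trims glycoproteins on the way to degradation, rose with thapsigargin at 24 h by 0.46 ± 0.09 (adjusted p = 0.00013).

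**Figure D3:**
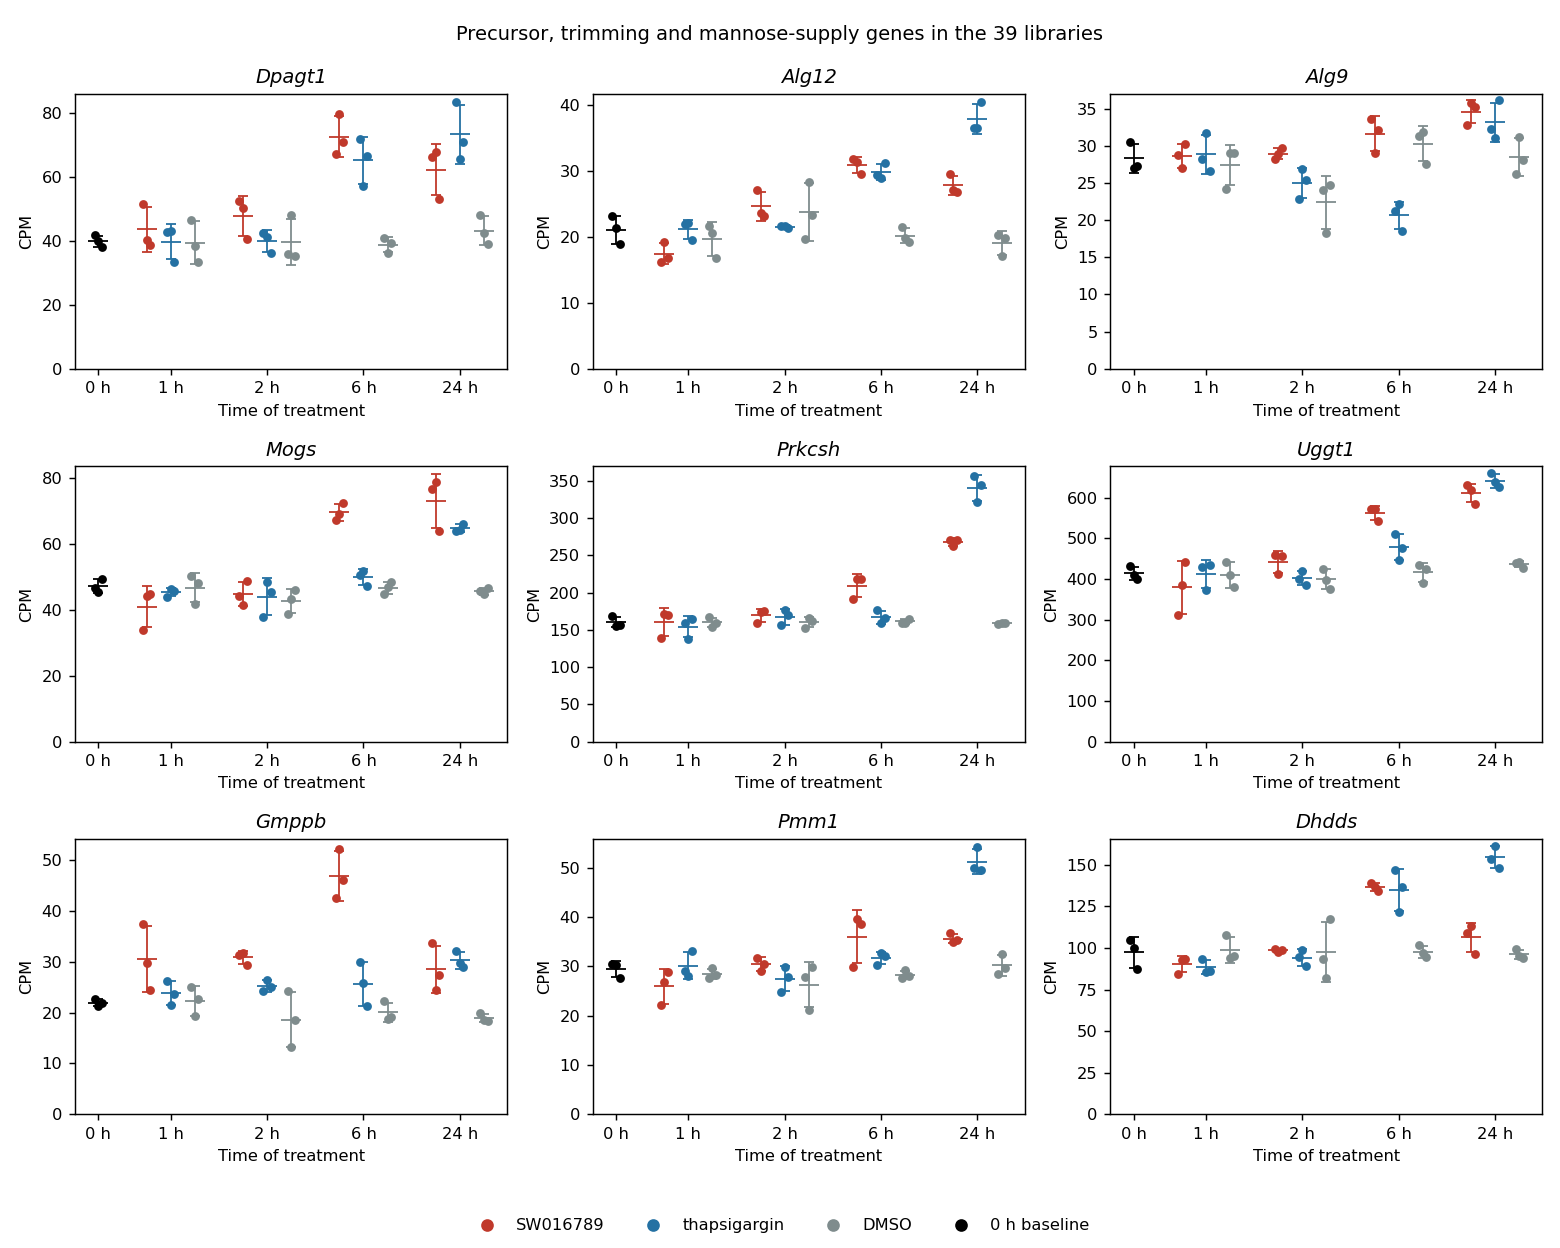
CPM (y axes, from 0) of 9 genes of the precursor, trimming and mannose-supply steps in each of the 39 libraries by time of treatment, with SW016789, thapsigargin and DMSO side by side and the 0 h baseline at the left. Points are libraries and bars the mean ± SD of 3; Alg9 fell with thapsigargin at 6 h (18.6 to 22.1 CPM, against 27.6 to 31.9 CPM in DMSO), and Gmppb was highest with SW016789 at 6 h (42.4 to 52.1 CPM).

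In GDP-mannose supply the genes of single enzymes also differed. Gmppb (chr9:108049290-108051936), the catalytic subunit of GDP-mannose pyrophosphorylase, was called already at 2 h of SW016789. At 2 h it had 31.4, 31.7 and 29.4 CPM in SW016789, 24.1, 26.4 and 25.0 CPM in thapsigargin and 24.1, 13.2 and 18.5 CPM in DMSO. SW016789 stood above DMSO by 0.73 ± 0.15 (adjusted p = 0.0032), but DMSO of experiment 2 was low and without it the call ended, at 0.54. Over all genes that library differed from the other DMSO libraries at 2 h by chi-square values of 47.5 and 50.4 per degree of freedom. Those libraries differed from each other by 19.2. Every comparison with DMSO at 2 h used all of them. At 6 h Gmppb had 42.4, 52.1 and 46.0 CPM in SW016789, 29.9, 25.8 and 21.3 CPM in thapsigargin and 22.2, 18.7 and 19.2 CPM in DMSO. SW016789 was above all other libraries, at 1.23 ± 0.15 (adjusted p = 2.3e-07), the widest change of the 37 under that compound. Thapsigargin was at 0.36 ± 0.15 (adjusted p = 0.086), and at 0.36 ± 0.13 with the replicate block (adjusted p = 0.042).

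At 24 h Gmppb had 33.6, 24.5 and 27.4 CPM in SW016789, 32.1, 29.7 and 28.9 CPM in thapsigargin and 19.9, 18.6 and 18.3 CPM in DMSO. Both treatments were above DMSO, by 0.59 ± 0.15 (adjusted p = 0.020) and 0.67 ± 0.15 (adjusted p = 0.00076), and the SW016789 call ended without SW016789 of experiment 1 or any 1 DMSO library, at 0.45 to 0.61. Already at 1 h SW016789 had 37.3, 29.8 and 24.4 CPM, against 25.0, 19.3 and 22.6 CPM in DMSO, overlapping it (0.44 ± 0.15, adjusted p = 0.28). Gmppb overlaps Rnf123 on the opposite strand. Gmppa, the regulatory partner, rose at 24 h of SW016789 (0.45 ± 0.10, adjusted p = 0.0036, ended without SW016789 of experiment 2 or DMSO of experiment 3, at 0.36 to 0.39).

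Pmm1 (chr15:81951106-81960930), a phosphomannomutase, had 50.0, 54.1 and 49.5 CPM in thapsigargin at 24 h, against 28.5, 32.6 and 29.7 CPM in DMSO, without overlap (0.76 ± 0.11, adjusted p = 8.5e-07), and SW016789 had 36.7, 34.9 and 35.4 CPM (0.24 ± 0.11, adjusted p = 0.41). SW016789 at 6 h had 29.8, 39.5 and 38.7 CPM, against 27.6, 29.2 and 28 CPM in DMSO (0.35 ± 0.11, adjusted p = 0.040), where the lowest library was SW016789 of experiment 1. That call ended without any 1 of the 5 other libraries, at 0.24 to 0.37. Pmm2, the other phosphomannomutase, and Mpi, the isomerase that feeds both from fructose phosphate, were called against DMSO at no single time. At 24 h of thapsigargin Pmm2 had 36.1, 32.3 and 32.4 CPM, against 33.2, 29.8 and 28.9 CPM in DMSO (0.13 ± 0.15, adjusted p = 0.63), and the difference in response between the mutase genes was not tested.

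The compounds were also set directly against each other. At 1 h 0 of 37 genes differed between SW016789 and thapsigargin (0.11% of all genes) and at 2 h 0 (0.667%). The unadjusted p was below 0.05 for 4 of the 37 at each time, beside 687 and 1811 of the 21752 genes tested. DESeq2 called 0 and 3 of the 37, beside 46 and 421 of all genes. At 6 h 10 genes were higher in SW016789 (27%), where 7.54% of all genes were higher, and 0 were lower, where 4.01% were. At 24 h 1 was higher (9.78% of all genes) and 8 were lower (8.26%). Gmppb (0.87 ± 0.15, adjusted p = 9.8e-05), Gfpt1 (0.67 ± 0.07, adjusted p = 2.1e-08) and Alg9 (0.62 ± 0.11, adjusted p = 0.00012) differed most at 6 h, and in each of them all SW016789 libraries were above all thapsigargin libraries. Nus1, Mogs and Pgm3 followed, by 0.48 to 0.58, and Alg11, Ganab, Prkcsh and Uap1 by 0.29 to 0.40. These 4 calls ended without SW016789 of experiment 2 or of experiment 3, that of Ganab also without thapsigargin of experiment 2 or 3 and that of Uap1 also without thapsigargin of experiment 3, at 0.25 to 0.40.

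At 24 h Gnpnat1 was lower in SW016789 by 1.72 on the log2 scale, with a fold change of -1.72 ± 0.17 (adjusted p = 4.1e-10), 28.9 to 34.3 CPM in SW016789, against 95.6 to 105.8 CPM in thapsigargin. Dhdds (-0.54 ± 0.09, adjusted p = 2.2e-05) and Pmm1 (-0.52 ± 0.11, adjusted p = 0.00036) were lower too, as were Alg13, Alg12, Alg8, Prkcsh and Man1b1, at -0.48 to -0.35. The calls of Prkcsh and Man1b1 ended without thapsigargin of experiment 3 (-0.37 and -0.41), that of Alg13 without any 1 library (-0.59 to -0.41) and that of Alg8 without any 1 but SW016789 of experiment 2 (-0.51 to -0.40). Alg14 was higher, with 20.5, 29.99 and 25.6 CPM in SW016789, against 17.7, 17.7 and 18.05 CPM in thapsigargin (0.51 ± 0.12, adjusted p = 0.0016). The partners Alg13 and Alg14 thus differed in opposite directions, though neither was called against DMSO at a single time in the main model. Alg13 was called as higher than DMSO at 24 h of thapsigargin in 2 other settings. These were the replicate block with the intergenic percent and the fit without the libraries above 25% intergenic reads.

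The 6 h count of 10 was 6 without SW016789 of experiment 2 or 3, and 4 when only the 6 libraries compared were fitted. The 24 h count of 9 was 5 without thapsigargin of experiment 3. With the replicate block, Dolk at 6 h (0.36 ± 0.12, adjusted p = 0.039) and Gmppa (0.24 ± 0.08, adjusted p = 0.038) and Pgm3 (-0.34 ± 0.12, adjusted p = 0.036) at 24 h were called as well. At 6 h intergenic reads were 6.17% to 26.5% in SW016789, 8.23% to 34% in thapsigargin and 6.80% to 7.55% in DMSO. The summed β cell markers were 27014 to 36099.6 CPM in SW016789, 19008 to 21645 CPM in thapsigargin and 30843 to 34226 CPM in DMSO at 6 h, and 27689 to 31201 CPM in SW016789, 18687 to 19666 CPM in thapsigargin and 33315 to 40675 CPM in DMSO at 24 h. At 24 h 11 of the 12 were lower with thapsigargin and 4 with SW016789, where 10.7% and 1.06% of all genes tested fell. The part of this in the differences above was not tested.

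**Figure D4:**
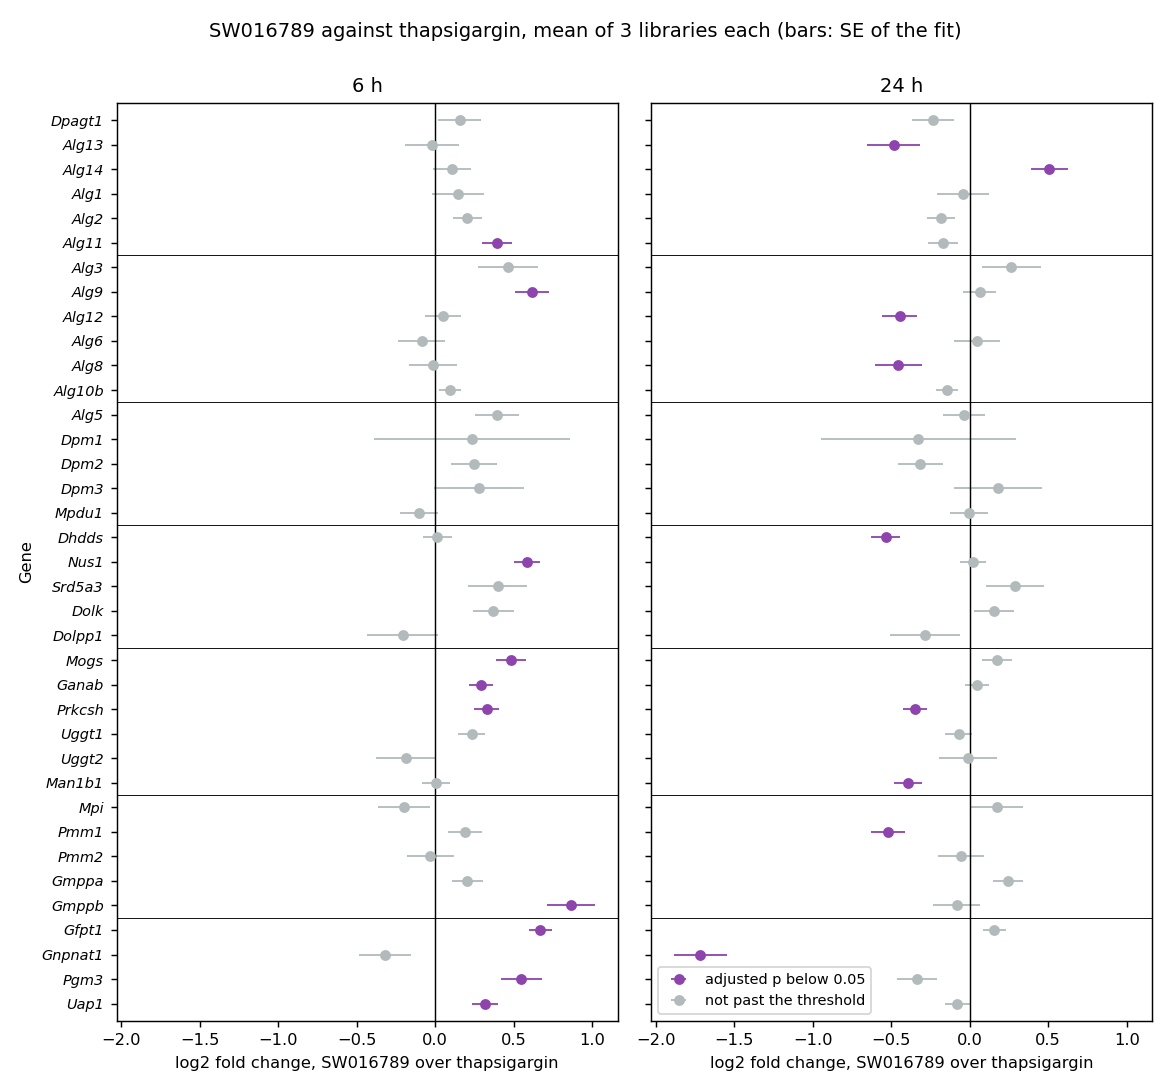
Log2 fold change of SW016789 over thapsigargin (x axes, bars are the SE of the fit, n = 3 libraries per group) for the 37 genes in order of role, at 6 h (left) and 24 h (right). Coloured points passed the adjusted p of 0.05; all 10 at 6 h lie right of 0, and 8 of 9 at 24 h lie left of it, with Gnpnat1 at -1.72.

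The effect over DMSO was also compared between times. From 2 to 6 h the effect of SW016789 grew in 3 of 37 genes (1.32% of all genes changed), Pgm3, Gfpt1 and Uap1, all of the hexosamine pathway. With the replicate block 7 passed, with Dpagt1, Alg12, Dhdds and Mogs added, and of all genes 484 passed, against 287 in the main model. The count was 8 without DMSO at 2 h of experiment 1, 1 without SW016789 at 6 h of experiment 3, and 0 without DMSO at 6 h of experiment 1, SW016789 at 6 h of experiment 2, DMSO at 2 h of experiment 3 or SW016789 at 2 h of experiment 3. From 6 to 24 h none of the 37 passed for SW016789 (1.45% of all genes). The unadjusted p was below 0.05 for 8 of the 37 and for 1999 of the 21752 genes tested. DESeq2 called 5 of the 37 (802 of all genes). The replicate block called 3 (516 of all genes), of which Prkcsh grew and Gmppb and Pgm3 shrank.

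The effect of thapsigargin changed from 2 to 6 h in 6 genes (3.2% of all genes), growing in Dpagt1, Alg12, Dhdds, Gnpnat1 and Uap1 and turning down in Alg9. That count was 1 without the libraries above 25% intergenic reads, 2 of which are thapsigargin libraries at 2 h. It was 0 to 3 without DMSO at 6 h of experiment 1, 2 or 3, DMSO at 2 h of experiment 3, thapsigargin at 2 h of experiment 1 or 3, or thapsigargin at 6 h of experiment 1 or 3. From 6 to 24 h the effect of thapsigargin grew in 9 genes (6.28%), Prkcsh, Gnpnat1, Alg9, Alg5, Pmm1, Alg11, Ganab, Gfpt1 and Alg10b. That count was 2 to 5 without DMSO at 6 h of experiment 1 or 2, DMSO at 24 h of experiment 1 or 3, thapsigargin at 6 h of experiment 2 or 3, or thapsigargin at 24 h of experiment 2 or 3. Alg10b, Alg5 and Gfpt1 lost the call, and Mogs gained it, without the libraries above 25% intergenic reads. Prkcsh grew by 1.06 ± 0.11 (adjusted p = 1.7e-08), and it overlapped DMSO at 6 h.

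Genes on either side of these steps were counted as well. Of all genes tested, 4.19% rose and 2.85% fell with SW016789 at 6 h and 1.95% and 1.06% at 24 h, and with thapsigargin 8.06% rose and 8.73% fell at 6 h and 10.1% and 10.7% at 24 h. Of 12 oligosaccharyltransferase genes, whose complex moves the tree onto proteins, 7 rose with SW016789 at 6 h and 9 at 24 h, and thapsigargin raised 2 and lowered 4 at 6 h and raised 9 and lowered 1 at 24 h. Ostc (0.89), Magt1 (0.71), Stt3a (0.64) and Rpn1 (0.57) rose most with SW016789 at 6 h. Of the 4 lectin chaperone genes, SW016789 raised 3 at both times and thapsigargin raised 0 and lowered 1 at 6 h and raised 3 at 24 h; Calr, calreticulin, was at 1.05 and Canx, calnexin, at 0.51 with SW016789 at 6 h. Of 8 genes of glycan-directed degradation, 3 and 3 rose with SW016789, led at 6 h by Edem1 (0.73) and Edem2 (0.71), and 2 and 5 with thapsigargin.

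The Golgi enzymes that remodel finished glycans were called in both directions. Of 14, SW016789 raised 3 and lowered 4 at 6 h and called 0 at 24 h, and thapsigargin raised 1 and lowered 7 at 6 h and raised 2 and lowered 6 at 24 h. The single genes raised at 6 h of thapsigargin here and in the nucleotide sugar and salvage lists are close to the share of all genes. Mgat2 (0.68) and Man1a (0.67) rose and Fut8 (-0.46) and Mgat3 (-0.45) fell with SW016789 at 6 h. Of 15 tested genes for nucleotide sugars and their transporters, 5 rose with SW016789 at 6 h, with Slc35b1 at 0.90, Slc35c1 at 0.81 and Slc35a2 at 0.76 among them, 4 rose at 24 h, and thapsigargin raised 1 and lowered 1 at 6 h and raised 2 at 24 h. Of 11 tested genes of hexosamine salvage and O-GlcNAc cycling, SW016789 raised 2 and lowered 1 at 6 h and raised 2 at 24 h, and thapsigargin raised 1 and lowered 2 at 6 h and raised 3 at 24 h. Of 10 genes fixed as checks of the treatments, 8 rose and 1 fell with SW016789 at 6 h and 8 rose with thapsigargin, led under SW016789 by Trib3 (2.46) and Ddit3 (2.33).

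Across the 4 times, SW016789 called 19 of the 37 genes at some single time and thapsigargin 21, against shared DMSO libraries. Tested over the 4 times together, 9.04% of all genes were called under SW016789 and 29.8% under thapsigargin. The share of all genes called at some single time, or under only a single compound, was not computed. At single times in the main model, Dolk, Gmppa and Nus1 passed under SW016789 and not under thapsigargin. Alg1, Alg8, Alg9, Dpm2 and Man1b1 passed there under thapsigargin and not under SW016789. The replicate block with the intergenic percent as a term also called Gmppa and Nus1 at 24 h of thapsigargin. It called Alg1 and Alg9 at 2 h of SW016789 as well, and DESeq2 called Alg9 there. In the direct comparison of the compounds Nus1 and Alg9 differed at 6 h and Alg8 and Man1b1 at 24 h. Dolk at 6 h and Gmppa at 24 h missed the threshold in the main model and passed it with the replicate block and by DESeq2, and Alg1 and Dpm2 passed at neither 6 nor 24 h. The 13 genes called against DMSO at no single time in the main model are Alg13, Alg14, Alg3, Alg6, Alg10b, Dpm1, Dpm3, Mpdu1, Srd5a3, Dolpp1, Uggt2, Mpi and Pmm2, and they come from every role except the hexosamine pathway.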

How the data were processed

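Total RNA from MIN6 cells was sequenced in 39 libraries (13 groups of 3). Per the labels, ribosomal RNA was removed with a depletion kit, whereas the methods of the study name another kit for mRNA. The authors mapped read pairs to mm10 with STAR and counted unique pairs per gene symbol and strand with featureCounts. The submitters' processing notes give STAR 2.5.2b and Subread 1.5.1, and the methods give later versions. The deposited raw counts were used as they stand, with the deposited exon length of each gene and the deposited numbers of intergenic and high-quality reads. The 78 columns of log2 FPKM and TPM were not used.

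Genes were kept with filterByExpr (21752 of 24421 symbols) and scaled with TMM. edgeR 4.0.16 (R 4.3.3) fitted a quasi-likelihood model with the 13 groups over all 39 libraries, Benjamini-Hochberg adjustment ran over all 21752 genes, and an adjusted p below 0.05 was called. The dispersion shared by all genes was 0.344 (58.6% as a coefficient of variation). Total counts of 9150443 to 47616080 set the precision. Intervals other than standard errors were not computed. Replicates of a group differed beyond sampling noise (the lowest of 39 pairwise chi-square values was 6.24 times its degrees of freedom), so none was merged.

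Same-numbered libraries come from the same experiment, which pairs them by design. The deviations of libraries from their group means had a median correlation of 0.058 within an experiment and -0.027 between experiments. Alternatives were DESeq2 1.42.0, its size factors in edgeR, library totals, no filter on low counts, the experiment as a replicate block, that block plus a covariate for the intergenic percent, the compared libraries alone, no libraries above 25% intergenic reads, and leaving out each library.

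The members and lists were chosen with earlier results of these data known. Values of every library are given for Gfpt1, Gnpnat1, Pgm3, Uap1, Dpagt1, Uggt1 and Uggt2, for the 4 called genes that changed most in each comparison with DMSO, and for the 3 that differed most between the compounds at 6 and 24 h. Those of Nus1, Alg3, Alg14 and Pmm2, and those at other times, were added after their values were seen. In other lists at most 4 genes are named, those that changed most with SW016789 at 6 h. Results for some genes of these lists are not reported here.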

Additional observations from a re-analysis of the deposited data

Results flagged for a closer look

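In 18 cases the effect of a compound over DMSO differed between successive times, by a test of the difference itself in edgeR's quasi-likelihood model (log2 ± SE, 3 libraries per group). A positive value means that the effect was more upward at the later time. For SW016789 from 2 to 6 h, the difference was 0.94 ± 0.18 in Pgm3 (adjusted p = 0.0021), 0.52 ± 0.10 in Gfpt1 (adjusted p = 0.0026) and 0.47 ± 0.12 in Uap1 (adjusted p = 0.027).

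For thapsigargin from 2 to 6 h, it was 0.82 ± 0.24 in Gnpnat1, 0.74 ± 0.19 in Dpagt1, 0.70 ± 0.16 in Alg12, 0.52 ± 0.13 in Dhdds and 0.46 ± 0.12 in Uap1, and -0.72 ± 0.16 in Alg9 (adjusted p = 0.0048). Of these, Alg12 had an adjusted p of 0.0081 and the other 4 had higher ones, up to 0.050 in Gnpnat1. Without the libraries above 25% intergenic reads only Alg9 kept the call.

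For thapsigargin from 6 to 24 h, it was 1.06 ± 0.11 in Prkcsh (adjusted p = 1.7e-08), 0.92 ± 0.24 in Gnpnat1, 0.77 ± 0.15 in Alg9 (adjusted p = 0.00085), 0.66 ± 0.19 in Alg5 and 0.60 ± 0.15 in Pmm1. Alg11 had 0.53 ± 0.14, Ganab 0.42 ± 0.11, Gfpt1 0.36 ± 0.10 and Alg10b 0.33 ± 0.10. The calls of Alg10b, Alg5 and Gfpt1 ended without the libraries above 25% intergenic reads. Those of Alg10b and Alg5 also ended with the replicate block and the intergenic percent, and that of Alg10b with DESeq2's size factors. Alg9 is the gene whose difference changed sign between the 2 intervals.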

How the results depend on the processing

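Of the values of single called genes recomputed under an alternative, 902 kept their direction and their side of the threshold, 148 kept their direction and lost the call, and 0 reversed. DESeq2 called 2 genes for SW016789 at 2 h (1 in the main model), 1 for thapsigargin at 2 h (0), 3 between the compounds at 2 h (0), 11 for the change of the SW016789 effect from 2 to 6 h (3) and 5 from 6 to 24 h (0). In that order of the last 2 changes, DESeq2's size factors gave 5 and 2, library totals 7 and 1, the replicate block 7 and 3, the replicate block with the intergenic percent 11 and 6, and the compared libraries alone 0 and 1. Calls over all genes rose as well. For these 2 changes they were 287 and 316 in the main model and 791 and 802 by DESeq2. DESeq2's size factors gave 385 and 403, and library totals 459 and 485. The replicate block gave 484 and 516, and with the intergenic percent 820 and 914. At 2 h DESeq2 called 1153 of all genes for SW016789 (562 in the main model), 1072 for thapsigargin (301) and 421 between the compounds (145). The replicate block gave 1 for thapsigargin at 2 h, also with the intergenic percent, which gave 4 for SW016789 at 2 h, and moved no other count by over 1.5 times. Of all genes the replicate block called 601 for thapsigargin at 2 h. With the intergenic percent it called 638 there and 1315 for SW016789 at 2 h. Without the libraries above 25% intergenic reads, SW016789 at 2 h had 2, its change from 6 to 24 h 1 and the thapsigargin change from 2 to 6 h 1. The compared libraries alone gave 0 for SW016789 at 2 h, 4 between the compounds at 6 h, 0 for the thapsigargin change from 2 to 6 h and 13 for SW016789 over all times. The cause was not tested.

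Leaving out 1 library at a time, SW016789 called 0 to 5 at 2 h, 7 to 15 at 6 h, 5 to 8 at 24 h and 8 to 23 over all times, and thapsigargin 0 to 8, 5 to 8, 15 to 16 and 14 to 25. The compounds differed in 6 to 14 at 6 h and 5 to 8 at 24 h. Changes from 2 to 6 h numbered 0 to 8 for SW016789 and 0 to 5 for thapsigargin, and from 6 to 24 h 2 to 13 for thapsigargin. DMSO against baseline at 2 h called 0 to 1. With 3 libraries a group, fewer libraries limit the calls.

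Scaling to library totals moved the median log2 fold change of all genes by -0.15 between the compounds at 6 h and -0.11 at 2 h. Over all genes it gave 817 higher and 1136 lower for SW016789 at 6 h (911 and 620 in the main model), 2656 and 1408 for thapsigargin at 6 h (1753 and 1900), and 957 and 2210 between the compounds at 6 h (1641 and 872). For the 37 genes at 6 h it gave 14 higher and 0 lower for SW016789, 11 higher and 1 lower for thapsigargin, and between the compounds 7 higher and 1 lower, with Gnpnat1 the lower one. DESeq2 called 6026 of all genes and the replicate block 5952 for thapsigargin at 6 h, against 3653 in the main model.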
